A study of Mus musculus with 2 samples.

Results

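Mir451a, Mir144 and Mir486, the microRNA genes best known from red blood cells, were followed in calf muscle together with Mir451b and Mir3107, the genes annotated on the opposite strands of Mir451a and Mir486. These 5 genes, chosen by their GENCODE M21 symbols, are 5 of the 2202 microRNA genes counted. Small RNA shorter than 30 nt was sequenced from whole gastrocnemius of female mice aged 14 days of the F1 hybrid strain B6CASTF1/J (C57BL/6J crossed with CAST/EiJ), bought from The Jackson Laboratory. There was 1 group, with no treatment named, and 2 biological replicates. The biosample name of replicate 1 speaks of 3 females and that of replicate 2 of a single female, and the labels give both the same donor identifier. Whether RNA of several animals was pooled, and whether blood was flushed from the muscle, is not given in the sources used here. The spread between the replicates may therefore be partly technical. Technical differences and differences between animals cannot be told apart with these 2 replicates.

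A microRNA is cut from a hairpin in a longer transcript, and bases 2 to 8 of the mature strand, the seed, pair with target messenger RNAs. Mir144 and Mir451a are made from one primary transcript that the erythroid factor GATA1 switches on. Mir451a is processed without Dicer: its hairpin is sliced by the Argonaute protein AGO2, and the mature strand runs around the loop. Mir486 lies within Ank1, the gene of ankyrin 1, which anchors the spectrin skeleton to the red cell membrane and in muscle is also made as a short form of the sarcoplasmic reticulum. Mir486 is known both from erythroid cells and from striated muscle. In whole tissue, a lower level from fewer cells of a type cannot be told apart from less RNA per cell.

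The RefSeq sequence table (GRCm38.p6, the assembly also called mm10) held 3 of the 5 genes: Mir144, Mir451a and Mir451b. Their 4 mature microRNAs are shown 5′ to 3′ with the seed in capitals, because the seeds set these genes apart from each other and from nearly all other mouse microRNAs.
miR-451a: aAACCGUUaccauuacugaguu
miR-451b: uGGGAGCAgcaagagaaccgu
miR-144-3p: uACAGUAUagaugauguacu
miR-144-5p: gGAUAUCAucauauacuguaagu
No other mature microRNA among the 1738 in the table shared a whole seed with any of the 4. One, miR-101a-3p, shared bases 2 to 7 with miR-144-3p.
miR-101a-3p: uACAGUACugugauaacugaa
Its gene Mir101a stood at 40.8 CPM in replicate 1 and 36.3 CPM in replicate 2, where CPM is reads per 1000000 reads assigned to microRNA genes on their own strand.

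The hairpins of the cluster are shown with the mature strands in capitals, because they differ in where the mature strand sits.
Mir144 hairpin: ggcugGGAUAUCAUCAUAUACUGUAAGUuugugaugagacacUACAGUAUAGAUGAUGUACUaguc
Mir451a hairpin: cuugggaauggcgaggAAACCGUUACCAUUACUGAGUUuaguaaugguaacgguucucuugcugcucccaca
In the fold predicted by RNAfold, the 4 loop bases of Mir451a all belonged to miR-451a, which spans hairpin positions 17 to 38. In Mir144 none of the 6 loop bases belonged to miR-144-3p, which spans positions 43 to 62. The predicted folding energy was -43.30 kcal/mol for Mir451a with 30 base pairs and -28.60 kcal/mol for Mir144 with 27 base pairs. The deposited counts pool the whole hairpin, so miR-144-3p and miR-144-5p cannot be told apart in them.

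In the mm10 coordinates of GENCODE M21, Mir144 (ENSMUSG00000065401.1) lies on the plus strand of chromosome 11 from 78073005 to 78073070. Mir451a (ENSMUSG00000070065.1) follows 99 bp downstream on the same strand, from 78073170 to 78073241. Mir451b (ENSMUSG00000104813.1) covers exactly the same bases on the minus strand. No protein-coding gene spans the cluster. The nearest on the downstream side is Eral1, 134 bp beyond Mir451a and on the minus strand. Mir486 (ENSMUSG00000070084.3) lies on the plus strand of chromosome 8 from 23142555 to 23142682, in an intron of Ank1, with the nearest annotated Ank1 exons 834 bp before and 5598 bp after it. Of 17 annotated Ank1 transcripts 15 span it, and the closest start of a coding one is 3278 bp upstream. Mir3107 (ENSMUSG00000106471.1), from 23142573 to 23142662 on the minus strand, lies wholly inside Mir486 and in an intron of Gm15816, a noncoding transcript antisense to Ank1.

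**Figure D1:**
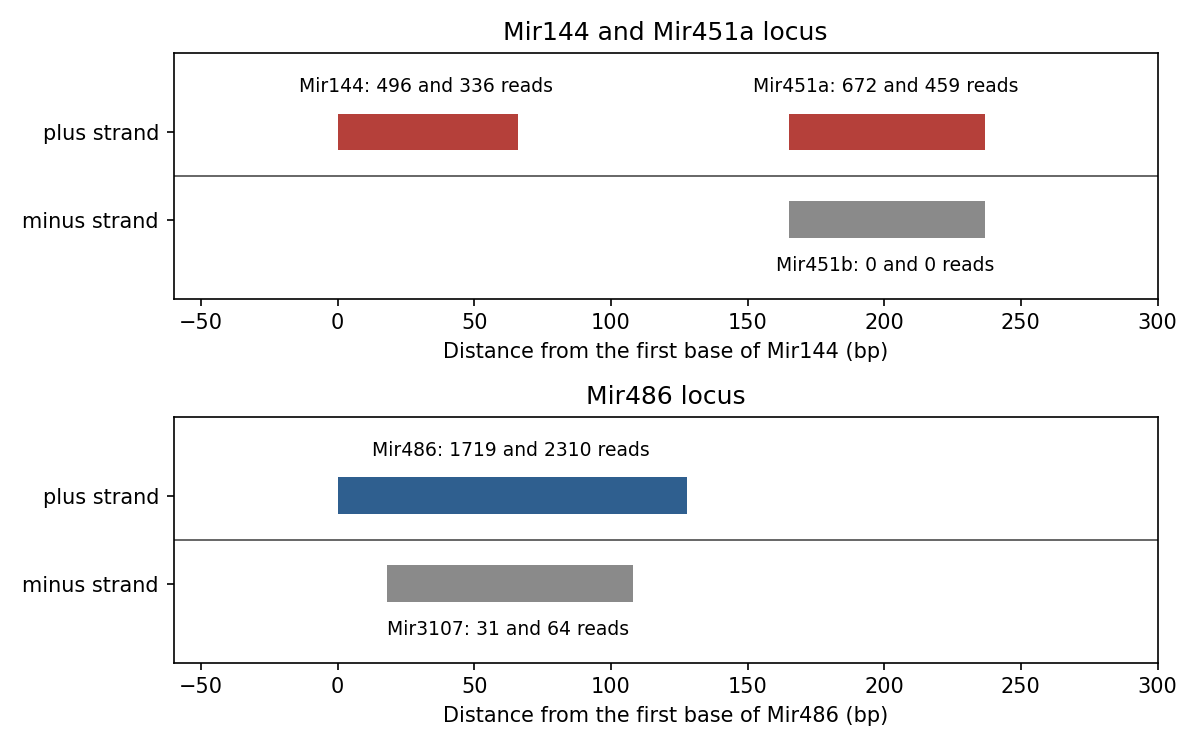
The annotated hairpins are drawn to scale by distance in bp from the first base of Mir144 (top) or Mir486 (bottom), on the plus and minus strands, with same-strand reads of replicate 1 and replicate 2 written beside each. Mir451b had 0 reads in both, and Mir3107 had 31 and 64.

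The libraries held 2672454 (replicate 1) and 4292012 (replicate 2) reads assigned to microRNA genes, so 1 read was worth 0.374 and 0.233 CPM. Multiply aligned reads, which enter no gene's count, were 52.7% and 52.4% of each library. The muscle fibre list of 11 genes held 9.57% and 8.53% of assigned counts, led by Mir206 at 89900 ± 7361 CPM (SD, n = 2) and Mir499 at 246 ± 47.3 CPM, with 0 reads on Mir133c. Reads that fit several genes of the list equally are in neither this share nor these levels. The order of its genes therefore holds for uniquely aligned reads only. The endothelial gene Mir126a held nearly all of the 11.9% of its list in each library, and its opposite-strand partner Mir126b had 2 reads in replicate 1 and 1 in replicate 2.

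The red cell genes and their opposite-strand partners were a minor part of the reads assigned to microRNA genes. Multiply aligned reads lie outside these counts, and how many of them came from the 5 genes was not tested. Together the 5 genes held 0.109% of assigned counts in replicate 1 (exact 95% binomial interval 0.105 to 0.113) and 0.0738% in replicate 2 (0.0713 to 0.0765). Here and below, intervals cover counting error only. Of the 5 genes, 4 reached 1 CPM in both replicates, whereas 16.7% of all 2202 genes did. Since each read is a whole small RNA, levels are not divided by hairpin length.

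Mir486 was the highest of the 5 genes, with 1719 reads or 643 CPM in replicate 1 (interval 613 to 674) and 2310 reads or 538 CPM in replicate 2 (516 to 561). Its mean was 591 ± 74.3 CPM, which placed it 96th of all genes and above 73.8% of the 367 expressed ones. The genes next to it in level were Mir181b-2 at 597 ± 173 CPM and Mir872 at 587 ± 50.4 CPM, neither separated from it beyond their spread. The level and rank of Mir486 cover only uniquely aligned reads. Reads that fit Mir486 and Mir3107 equally would enter neither count, and how many there were was not tested.

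Mir451a, whose product is the most abundant microRNA of mature red cells, had 672 reads or 251 CPM in replicate 1 (233 to 271) and 459 reads or 107 CPM in replicate 2 (97.4 to 117). The intervals do not overlap, and the mean was 179 ± 102 CPM. It ranked 125th in replicate 1 and 169th in replicate 2. Mir18 (197 ± 25.9 CPM) and Mir495 (179 ± 44.4 CPM) stood next to it by mean level, within its spread.

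Mir144, whose product restrains the antioxidant factor Nrf2 in red cells, had 496 reads or 186 CPM in replicate 1 (169.6 to 203) and 336 reads or 78.3 CPM in replicate 2 (70.1 to 87.1). Its mean was 132 ± 75.9 CPM. Mir204 at 135 ± 29.5 CPM and Mir29c at 131 ± 16.9 CPM were its neighbours in level. Mir144 was also high in the same library as Mir451a.

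Mir3107 was far lower, with 31 reads or 11.6 CPM in replicate 1 (7.88 to 16.5) and 64 reads or 14.9 CPM in replicate 2 (11.5 to 19.0). The intervals overlap, and the mean was 13.3 ± 2.34 CPM. Mir222 (13.6 ± 2.84 CPM) and Mir194-2 (13.0 ± 0.989 CPM) stood next to it. As for Mir486, the Mir3107 level covers only uniquely aligned reads, and reads that fit both genes equally are not in it. Mir451b had 0 reads in both libraries, which allows up to 1.12 CPM in replicate 1 and 0.699 CPM in replicate 2 when 3 reads are taken as the limit.

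By uniquely aligned reads, the order in both libraries was Mir486, Mir451a, Mir144, Mir3107 and Mir451b. The lowest Mir486 value, 538 CPM, lay above the highest Mir451a value, 251 CPM. Mir451a and Mir144 overlapped across the libraries, since Mir144 in replicate 1 (186 CPM) exceeded Mir451a in replicate 2 (107 CPM). The lowest Mir144 value, 78.3 CPM, lay above both Mir3107 values.

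**Figure D2:**
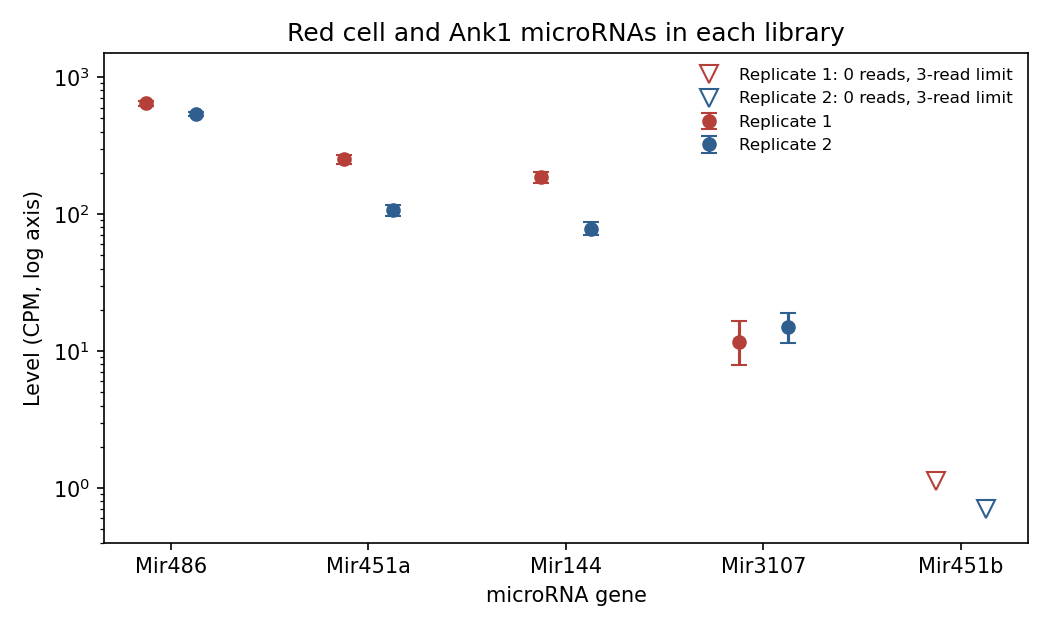
Level of each gene in CPM on a log axis, with 1 point per library and bars for the exact 95% counting interval. Open triangles mark the 3-read limit for Mir451b, which had no read, and Mir451a and Mir144 are the genes whose replicates lie farthest apart.

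The 2 genes of the erythroid cluster kept the same proportion while their level more than doubled between libraries. Mir451a had 1.35 reads per Mir144 read in replicate 1 (95% interval 1.20 to 1.52) and 1.37 in replicate 2 (1.18 to 1.58). Within each library Mir451a was thus above Mir144 beyond counting error, and the 2 proportions differed by less than their intervals. Mir451a was 2.35-fold higher in replicate 1 (2.09 to 2.65) and Mir144 2.37-fold higher (2.06 to 2.73).

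Mir486 did not move in that proportion. It was 1.20-fold higher in replicate 1 (1.12 to 1.27), an interval that does not reach those of Mir451a and Mir144. Mir486 had 2.56 reads per Mir451a read in replicate 1 (2.34 to 2.80) and 5.03 in replicate 2 (4.55 to 5.58). Against Mir144 the values were 3.47 (3.13 to 3.84) and 6.88 (6.13 to 7.73). The ratio of counted Ank1 microRNA reads to those of either red cell cluster gene was therefore 1.97 or 1.98 times as high in replicate 2. All these Mir486 values rest on uniquely aligned reads. Reads that fit Mir486 and Mir3107 equally are not in them, so the ratios need not hold for all Mir486 product. Mir3107 stood at 0.778 of its replicate 2 level in replicate 1 (0.490 to 1.21), so no difference was detectable at its depth. Each ratio sets a single library against another, so it says nothing of conditions and carries no p-value.

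Read against all genes, the difference in Mir451a and Mir144 was among the largest. Of the 176 genes that averaged at least 100 CPM, 2.27% were over 2-fold apart in either direction and 1.70%, or 3 genes, were over 2-fold higher in replicate 1. Those 3 were Mir122, Mir144 and Mir451a, and Mir543 was the only one as far apart in the other direction. The median difference over the 176 genes was 1.12-fold. Mir486 ranked 27th among them for excess in replicate 1 and 58th by size of difference in either direction. Of the 176, 49.4% were higher in replicate 1 by any amount, and 34.7% with an interval that excluded 1, a property that Mir486 thus shared with many genes.

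No gene outside the cluster at this level closely shared its ratio. The nearest of 173 others to both Mir451a and Mir144 in log2 ratio was Mir155, a microRNA of activated leukocytes, at 1.69-fold (503 CPM against 298 CPM). Mir181b-2 at 1.51-fold and Mir1a-2 at 1.44-fold came next. Mir486 had many genes at its ratio, the nearest being Mir30a, Mir29c and Mir27a, each 1.20-fold higher in replicate 1. Likeness here rests on 2 libraries and so on a single ratio per gene.

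**Figure D3:**
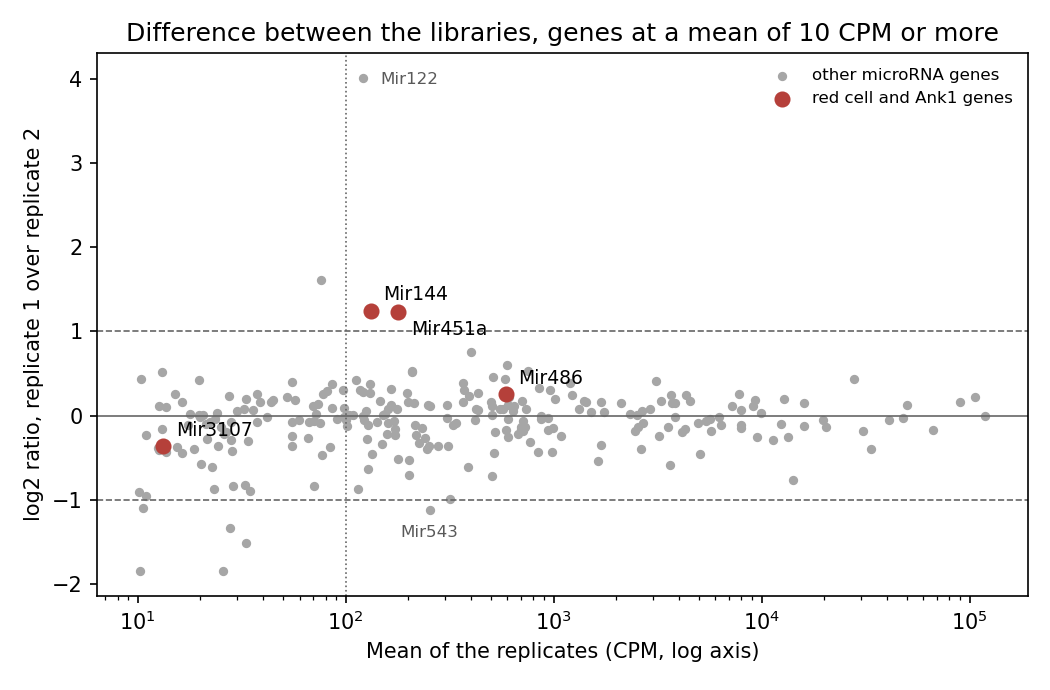
Each point is a gene averaging at least 10 CPM, placed by its mean level in CPM (log axis) and its log2 ratio of replicate 1 over replicate 2. Dashed lines mark 2-fold, the dotted line 100 CPM, and Mir144 and Mir451a lie together above the upper 2-fold line while Mir486 lies among the other genes.

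Other microRNAs abundant in red cells were split between the libraries. Of the 18 genes on that list, 17 averaged at least 10 CPM. Of these 11 were higher in replicate 1 and 6 in replicate 2, a share to be read against the 46.2% of all 260 such genes that were higher in replicate 1. None was over 2-fold higher there, compared with 1.54% of all such genes, namely Mir122, Snord43, Mir144 and Mir451a. The list's median log2 ratio was 0.07, beside -0.04 over all 260. Its most abundant genes, which other tissues also make in quantity, were Mir22 at 32112 and 23701 CPM and Mir191 at 5592 and 5750 CPM in replicates 1 and 2. Mir183 and Mir182, named after their values were seen, went furthest the other way at 0.279 and 0.397 of their replicate 2 level.

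The list of regulators of erythroid differentiation, such as those that lower the stem cell factor receptor Kit, had 12 of 14 genes at a mean of 10 CPM. Of these 5 were higher in replicate 1 and 7 in replicate 2, with a median log2 ratio of -0.06, beside the same 46.2% and -0.04 over all. Its most abundant genes were Mir23a at 28951 and 32771 CPM and Mir376a at 626 and 729 CPM. Mir23a is also widely made in endothelium and muscle, so its level cannot be assigned to erythroid precursors.

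Markers of leukocytes and platelets, the other cells of blood, stood at 0.273% of counts in replicate 1 and 0.222% in replicate 2. This list shares Mir155, Mir150 and Mir223 with that of the erythroid regulators, so the lists are not independent. Of 8 genes, 6 had a mean of 10 CPM, and 5 of these were higher in replicate 1, beside 46.2% of all 260 genes at that level. Their median log2 ratio was 0.38, beside -0.04 over all, and none was over 2-fold, beside 1.54% of all. One of the 5, Mir342, was all but equal in both. Mir342 stood at 874 CPM in both libraries and Mir146 at 669 and 494 CPM, while Mir142b had 0 reads and Mir146b a single read. The hepatocyte gene Mir122 was 16.1-fold higher in replicate 1 (12.4 to 21.3), with 229 and 14.2 CPM. The part of these other cell types in the Mir451a and Mir144 difference was not tested.

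The strand columns assign each counted read at the overlapping loci to 1 of the opposite-strand genes. Reads opposite to Mir486 numbered 31 and 64, the very reads counted for Mir3107, and reads opposite to Mir3107 numbered 1719 and 2310. In the unstranded column Mir486, Mir3107, Mir451a and Mir451b all had 0 reads in both libraries, while Mir144, which has no gene opposite it, kept its 496 and 336. The 4 overlapping genes made up 2422 of the 708973 reads left ambiguous by that column in replicate 1 (0.342%) and 2833 of 1064808 in replicate 2 (0.266%). Without strand, then, 4 of the 5 genes would be listed at 0, of which Mir451b had 0 reads with strand as well.

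Mir3107 took 1.77% of the stranded reads of the Mir486 locus in replicate 1 (exact 95% interval 1.21 to 2.51) and 2.70% in replicate 2 (2.08 to 3.43). The background of reads on the wrong strand was measured in the 2138 genes with no microRNA gene opposite them. These had 35 opposite-strand reads against 1963475 same-strand reads in replicate 1, or 17.8 per 1000000 reads (12.4 to 24.8), and 36 against 3227195 in replicate 2, or 11.2 per 1000000 reads (7.81 to 15.4). At those rates the reads of Mir486 would be accompanied by 0.0306 and 0.0258 opposite-strand reads. Mir3107 had 31 and 64. That rate comes from genes with nothing opposite them and does not measure reads of the Mir486 locus that could align to either strand. Mir144 had 0 opposite-strand reads in both libraries.

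At the Mir451a locus no read fell on the opposite strand, that of Mir451b. With 3 reads again taken as the limit, its 0 reads allow up to 0.446% of the 672 reads of Mir451a in replicate 1 and 0.654% of its 459 in replicate 2. The hairpin of Mir451b is the exact reverse complement of that of Mir451a. The 2 mature strands come from different positions, 11 bases apart on the chromosome. The longest stretch of miR-451a that also reads on the Mir451b strand, aaccguuaccauuacu, has 16 of its 22 nt, so a full-length miR-451a read matches only 1 strand. As background, Mir486 and Mir3107 are known to give the same mature 5′ strand, which was not checked against sequence here. A read that fits both strands equally would count as multiply aligned and enter neither gene, so the split between them covers only reads that aligned to 1 place. How many reads were left out of either count, or placed on the wrong one, was not tested.

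Among all 32 pairs of microRNA genes that overlap on opposite strands, 9 had reads counted for the lower-strand gene in both libraries. The other 23 had none counted for it in either. In replicate 2, 1 read lay opposite Mir219a-1 but was not counted for its partner Mir219c. Mir486 and Mir3107 had the second greatest share of the lower strand, at 2.23% ± 0.654 (SD, n = 2). Mir24-1 and Mir3074-1 had by far the greatest, at 18.2%, from 23 of 121 reads in replicate 1 (12.4 to 27.1) and 35 of 201 in replicate 2 (12.4 to 23.4). This pair was named after its values were seen, as were the next 2. Mir136 and Mir3071 followed at 1.50% ± 0.145, with intervals that overlap those of Mir486 and Mir3107 (0.696 to 3.14 and 0.643 to 2.64), so their order was not separated. Mir337 and Mir3544 came next at 0.429%, below the lower bound of both Mir3107 intervals. The 3 most abundant pairs had little or nothing on the lower strand. Mir126b held 0.000413% beside Mir126a, Gm25301 had 0 reads beside Mir378a, and Mir299b held 0.0484% beside Mir299a. Mir451b was 1 of the 23 lower-strand genes without any read. Some of those 23 pairs, such as Mir290a and Mir290b, had no read on either strand and so could not show one. All these shares and their order cover only uniquely aligned reads. How many reads fit both strands of a pair equally, and whether the pairs differ in this, was not tested.

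**Figure D4:**
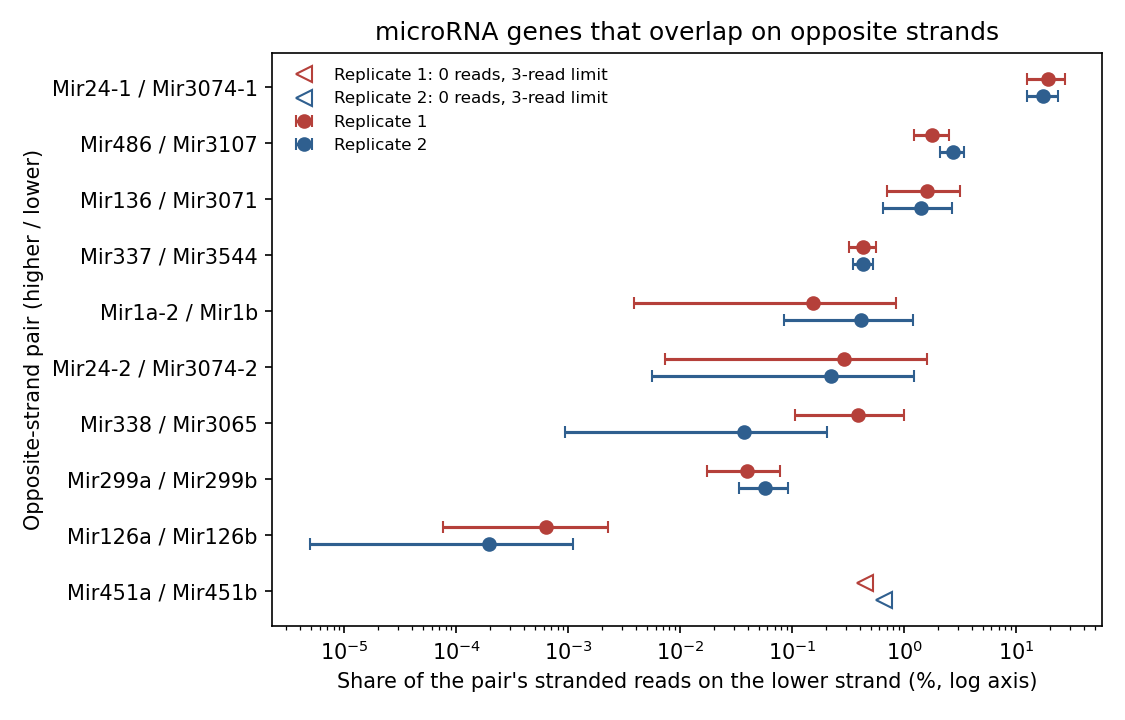
Share in percent (log axis) of each pair's stranded reads that fell on the lower of the strands, by library, with exact 95% intervals, for the 9 pairs with such reads in both libraries, and the 3-read limit (open triangles) for Mir451a and Mir451b. The Mir24-1 and Mir3074-1 pair has the greatest share, Mir486 and Mir3107 come second, and their intervals overlap those of Mir136 and Mir3071. Only uniquely aligned reads are counted.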

How the data were processed

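The authors deposited raw read counts per microRNA gene for each library, made on mm10 with GENCODE M21, per the file headers; which aligner and counter made them is not given in the sources used here. Each file has 3 count columns with no header, read from their order as unstranded, same-strand and opposite-strand reads. The 4 summary lines (66.6% and 64.6% of reads) stayed out of totals. Same-strand counts were divided by their total (2672454 and 4292012) to give CPM. Shares have exact (Clopper-Pearson) 95% intervals, and ratios have intervals derived from them. These cover counting error only. In a check on simulated data, 95.4% of intervals held the true ratio of replicate 1 over replicate 2 (260 genes, 200 of them changed 4-fold). The simulated data held counting error alone, so the check says nothing of spread between animals or preparations. With 1 group no test was run. The members and lists were chosen with earlier results of these data known. Named genes were the members, per main member the 3 nearest in replicate ratio and the neighbours in level, the 2 most abundant of each list, and the 3 most abundant opposite-strand pairs. Mature microRNAs and hairpins are from RefSeq (GRCm38.p6), folds from RNAfold 2.7.2. Alternatives were the strand column, other denominators, TMM (edgeR 4.0.16), DESeq2 1.42.0 size factors, other thresholds and each replicate alone. Ligation preferences between sequences were not measured.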

Additional observations from a re-analysis of the deposited data

How the results depend on the processing

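With the unstranded column the mean levels of Mir451a, Mir486 and Mir3107 became 0, because their reads are ambiguous there, and the share of the 5 genes in assigned counts fell from 0.0915% to 0.0178%. Per 1000000 reads of the whole library the mean levels were 60.9 for Mir451a, 44.8 for Mir144, 203 for Mir486 and 4.57 for Mir3107, since the denominator then holds unassigned reads too. Levels per uniquely aligned read and with TMM or DESeq2 size factors moved by less than the spread between replicates. The replicate ratios stayed inside their counting intervals under TMM, DESeq2 size factors and whole-library totals, from 2.22 to 2.40 for Mir451a and from 2.24 to 2.43 for Mir144, where the unstranded column also gave a value. Ratios of the other members in the unstranded column could not be computed. Genes over 2-fold apart rose from 2.27% to 19.2% of genes when 1 read in both replicates was enough. Leaving out a replicate gives the other's value: 107 to 251 CPM for Mir451a, 78.3 to 186 for Mir144, 538 to 643 for Mir486, 11.6 to 14.9 for Mir3107, 0.0738% to 0.109% for the members' share, 1.35 to 1.37 for Mir451a over Mir144, 2.56 to 5.03 for Mir486 over Mir451a, 3.47 to 6.88 for Mir486 over Mir144, 36.1 to 55.5 for Mir486 over Mir3107 and 1.77% to 2.70% for the Mir3107 share of its locus. Of the 5 genes, Mir3107 and Mir451b had the fewest reads, so depth limits them most. Reads that fit Mir486 and Mir3107 equally enter neither count at any depth, and their number was not tested.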
